A study of Saccharomyces cerevisiae with 16 samples.

Results

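The 35 genes described here are the nuclear genes of budding yeast (Saccharomyces cerevisiae) that encode the machinery of mitochondrial respiration and ATP synthesis. They were chosen by name: 2 NADH dehydrogenases (NDE1 YMR145C, NDI1 YML120C), 4 subunits of succinate dehydrogenase (SDH1 YKL148C, SDH2 YLL041C, SDH3 YKL141W, SDH4 YDR178W), 9 subunits of the cytochrome bc1 complex (COR1 YBL045C, QCR2 YPR191W, CYT1 YOR065W, RIP1 YEL024W, QCR6 YFR033C, QCR7 YDR529C, QCR8 YJL166W, QCR9 YGR183C, QCR10 YHR001W-A), iso-1-cytochrome c (CYC1 YJR048W), 8 subunits of cytochrome c oxidase (COX4 YGL187C, COX5A YNL052W, COX6 YHR051W, COX7 YMR256C, COX8 YLR395C, COX9 YDL067C, COX12 YLR038C, COX13 YGL191W) and 11 subunits of the ATP synthase (ATP1 YBL099W, ATP2 YJR121W, ATP3 YBR039W, ATP4 YPL078C, ATP5 YDR298C, ATP7 YKL016C, ATP14 YLR295C, ATP15 YPL271W, ATP16 YDL004W, ATP17 YDR377W, ATP20 YPR020W). The deposited table held 12670 transcripts, of which 5836 were open reading frame transcripts (ORF-T, the units for protein-coding genes), and each of the 35 genes had 1 ORF-T unit in it. No rule on measured values was used to choose them, although earlier results of these data were known at the time. All 35 passed the filter on low counts, with 201 to 24911 reads per library.

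The study sequenced RNA of yeast lacking Rtr1, a phosphatase that acts on the C-terminal domain of RNA polymerase II, or Rrp6, an exonuclease that works with the nuclear exosome, in 16 libraries of 4 genotypes. Of these, 11 libraries of 3 genotypes were used: rtr1Δ rrp6Δ (replicates 1 to 4), rrp6Δ (replicates 1, 3 and 4) and wild type (WT, replicates 1 to 4). All strains had the BY4741 background, a MATa laboratory strain, and were harvested in exponential growth at an optical density of 0.8. BY4741 carries deletions of URA3 and MET17, yet 393 to 412, 367 to 458 and 473 to 514 reads were counted for URA3, and 27 to 143, 21 to 61 and 21 to 79 for MET17, in rtr1Δ rrp6Δ, rrp6Δ and WT libraries. The origin of these reads was not tested. The rrp6Δ strain was a member of the yeast knockout collection, and the rtr1Δ rrp6Δ strain was derived from it by putting a kanamycin cassette in place of RTR1, so both strains descend from 1 rrp6Δ parent and any other change that parent carried cannot be told apart from loss of Rrp6. Cultures of all genotypes that carry the same replicate number were grown on 1 day, and different numbers on different days.

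The deposited counts summed to 28.8 to 38.6 M reads per library. The deleted genes matched the labels: RRP6 had 8 to 22 reads in rtr1Δ rrp6Δ libraries and 10 to 13 in rrp6Δ libraries, against 3605 to 5503 in WT, and RTR1 had 35 to 56 reads in rtr1Δ rrp6Δ libraries, against 417 to 575 in rrp6Δ and 548 to 762 in WT. Genes expressed in a-cells, the cells of MATa mating type, were abundant (MFA2 at 10179 to 16383 reads over the 11 libraries). The alpha-cell genes MFALPHA1 and STE3 had 55 to 123 and 76 to 211 reads. The 35 genes together took 0.26 to 0.372% of the counted reads in rtr1Δ rrp6Δ libraries, 0.24 to 0.393% in rrp6Δ libraries and 0.245 to 0.31% in WT libraries, and in each genotype the lowest share was that of replicate 1.

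Respiration in yeast passes electrons along the inner mitochondrial membrane. This yeast has no proton-pumping complex I. NADH is oxidised instead by single-subunit dehydrogenases, Ndi1 facing the matrix and Nde1 facing the intermembrane space, and succinate dehydrogenase feeds electrons from the tricarboxylic acid cycle into the same coenzyme Q pool. The cytochrome bc1 complex passes them to cytochrome c, cytochrome c oxidase reduces oxygen, and the ATP synthase uses the resulting proton gradient. Most subunits are encoded in the nucleus, a few in the mitochondrial genome, and the mitochondrially encoded ones were not analysed here. While glucose is plentiful many of these nuclear genes are held low. Their best known activator is the Hap2/3/4/5 complex, which binds CCAAT sequences and whose activation subunit Hap4 is itself repressed by glucose.

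The promoters of the 35 genes were therefore searched for the CCAAT sequence and for the extended form ACCAATNA, on both strands over the 500 bases before each coding start (RefSeq annotation of assembly R64, the build the study called sacCer3). The extended form was present upstream of 16 of 35 genes (45.7%), compared with 486 of the 5585 ORF-T genes with a RefSeq coding start (8.7%), and plain CCAAT, which every extended match contains, was present upstream of 32 (91.4%) and 62.7%. The 2 NADH dehydrogenase genes both held the extended form, as did 3 of 9 bc1 genes, 1 of 4 succinate dehydrogenase genes, 4 of 8 oxidase genes and 6 of 11 ATP synthase genes. CYT1, COX4 and CYC1 held no CCAAT in this window, which says nothing about binding by the factor. The matches below, each with its surroundings, are those of genes whose levels the results turn on, and they come from complexes that differed in direction. The capitals mark the 8 bases of the motif, and each sequence runs 5′ to 3′ in the direction of its gene.
NDE1 (chrXIII:556560-556589, minus strand, 99 bases before the coding start): tattctggtaaACCAATTAaagagagaaaa
NDI1 (chrXIII:30017-30046, minus strand, 224 bases before the coding start): tattcattcggACCAATCAtatgaaggcat
SDH1 (chrXI:171429-171458, minus strand, 314 bases before the coding start): ggcgggggtggACCAATCAcagcgcagaac
RIP1 (chrV:107001-107030, plus strand, 244 bases before the coding start): ctccataacggACCAATCAgcgttttgcgc
QCR7 (chrIV:1496712-1496741, minus strand, 178 bases before the coding start): atcttgttttgACCAATCAggagcgacgcg
ATP4 (chrXVI:408916-408945, minus strand, 186 bases before the coding start): atcaatattgaACCAATCAcgacgcttttt
ATP15 (chrXVI:29934-29963, plus strand, 130 bases before the coding start): cttttatacgaACCAATGAaatttgatcct
A match of this kind is a description of the sequence, and a window of 500 bases can reach into a neighbouring gene.

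Levels are given below as CPM, the reads of a transcript relative to all counted reads of the library after TMM scaling over all transcripts, in the order replicate 1 to 4 (for rrp6Δ 1, 3 and 4). Fold changes are on the log2 scale with their standard errors (SE), from an edgeR quasi-likelihood fit that held genotype and replicate number. A gene was called at a Benjamini-Hochberg adjusted p of at most 0.05 over all 12670 transcripts. Per kb of gene length, ATP2, the beta subunit of the ATP synthase, was the most abundant of the 35 in each strain, at 370.4 ± 27.8 CPM per kb in rtr1Δ rrp6Δ cells, 345 ± 69.6 in rrp6Δ cells and 419 ± 23.8 in WT cells (SD, n = 4, 3 and 4). SDH1, the flavoprotein of succinate dehydrogenase, was at 11.03 ± 4.44, 11.6 ± 6.62 and 10.15 ± 4.12 CPM per kb in the same order of strains and was the least abundant.

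In both deletion strains the respiratory genes lay higher than most protein-coding genes, and most of the rises were in the bc1 complex. Counts relative to a library's total cannot tell a change of these RNAs apart from a change of the total RNA of a cell. In rtr1Δ rrp6Δ cells 11 of the 35 genes were called against WT, 9 higher and 2 lower, while 76.8% of all transcripts were called (40.5% higher, 36.3% lower). Among ORF-T units alone 69.5% were called, 9% higher and 60.5% lower, compared with 25.7% and 5.71% of the 35 genes. In rrp6Δ cells 17 of 35 were called, 11 higher and 6 lower. Here 81% of all transcripts were called (42.1% higher, 38.9% lower), and 76.6% of ORF-T units were (8.52% higher, 68.1% lower), compared with 31.4% and 17.1% of the 35 genes. Both comparisons share the 4 WT libraries. The median log2 fold change of the 35 genes was 0.06 in rtr1Δ rrp6Δ cells, where the median of all ORF-T units was -0.22, and 0.09 in rrp6Δ cells, where it was -0.29. All 35 genes lay above the ORF-T median in rtr1Δ rrp6Δ cells and 33 of 35 did in rrp6Δ cells. In rrp6Δ replicate 1, set against the WT library of the same number, 21 of 35 did.

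These directions depend on the scale to which the libraries are set. TMM factors taken from ORF-T units alone raised the median of all transcripts by 0.23 in the rtr1Δ rrp6Δ comparison and by 0.30 in the rrp6Δ comparison, and then 23 and 24 of the 35 genes were called higher and 0 lower in either. RLE factors (those of DESeq2) moved it the other way, by -0.11 and -0.12, and gave 8 higher and 6 lower in rtr1Δ rrp6Δ cells and 8 higher and 9 lower in rrp6Δ cells. The calls also depend on the growth day being in the fit. Without it, 1 gene (NDE1) was called in rtr1Δ rrp6Δ cells and 3 (COX7 and NDE1 higher, ATP15 lower) in rrp6Δ cells. The shares of transcripts called that are given above belong to TMM factors over all transcripts with the growth day in the fit. They are no background for the counts under other factors or without the day. From those counts a change of calls across the whole table cannot be told apart from a change in these genes.

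**Figure D1:**
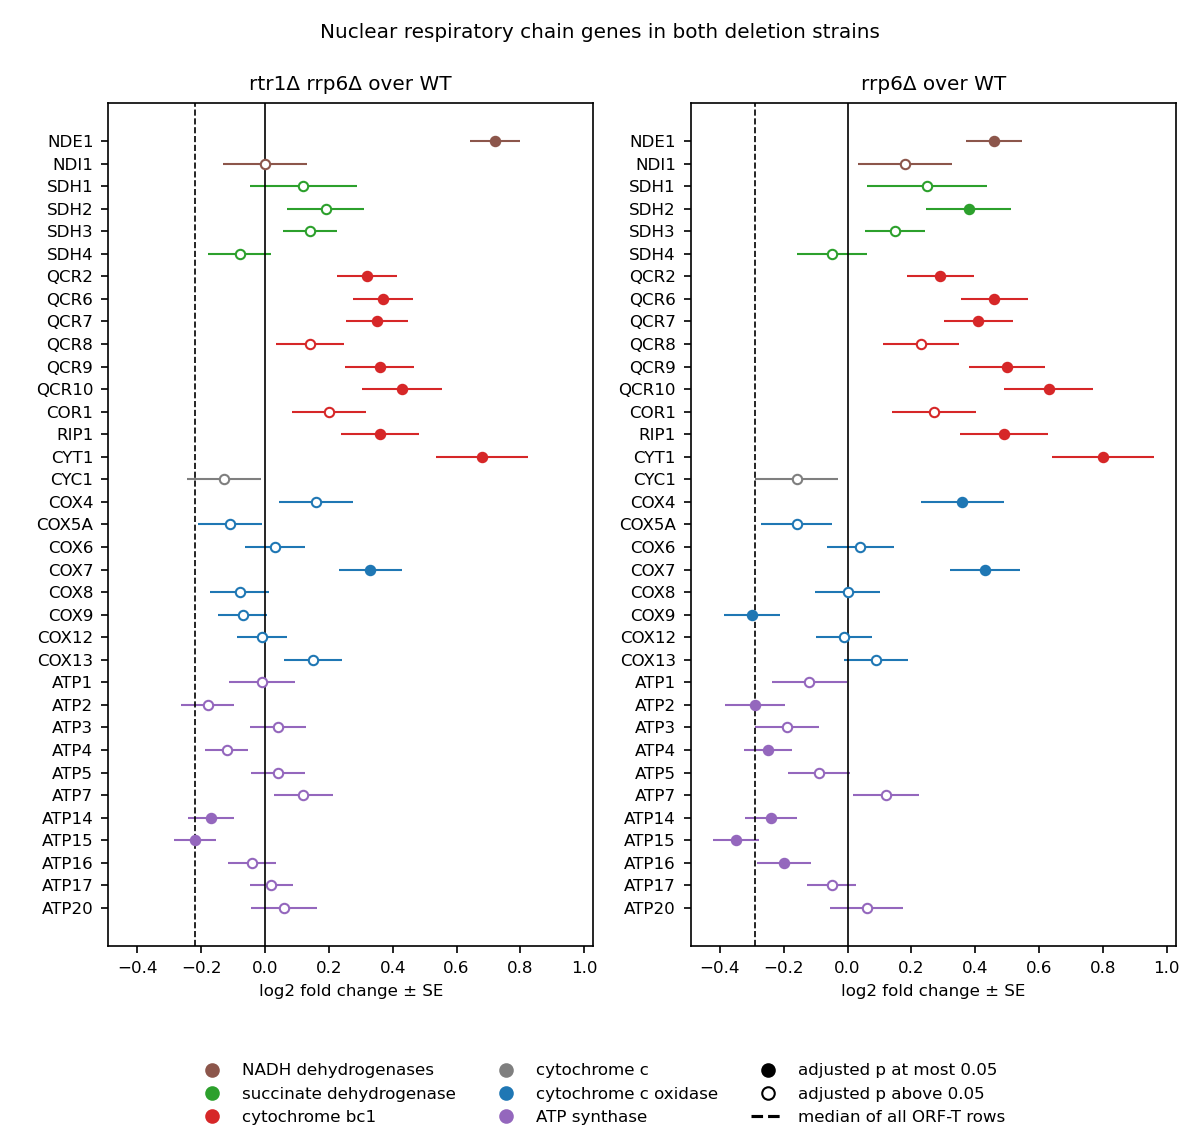
Log2 fold change (x axis, ± SE) of each of the 35 genes in rtr1Δ rrp6Δ over WT (left) and rrp6Δ over WT (right), ordered and coloured by complex, with filled points for an adjusted p of at most 0.05 and the median of all ORF-T units as a dashed line. The 9 bc1 genes lie right of 0 in both panels, the ATP synthase genes lie around or left of 0, and NDE1 reaches 0.72 and 0.46.

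NDE1, the external NADH dehydrogenase, had the smallest adjusted p of the 35 genes in both strains. Its coding region lies at chrXIII:554793-556475 on the minus strand. It was at 273.5, 297, 290.4 and 308.5 CPM in rtr1Δ rrp6Δ libraries, 188.5, 252 and 297 CPM in rrp6Δ libraries and 158, 181, 188 and 182 CPM in WT libraries. Every library of either deletion strain lay above every WT library, although rrp6Δ replicate 1 did so by a narrow margin. Its log2 fold change was 0.72 ± 0.08 (adjusted p = 2.57e-06) in rtr1Δ rrp6Δ cells and 0.46 ± 0.09 (adjusted p = 0.000342) in rrp6Δ cells, and it was called in both under every alternative tried. In rtr1Δ rrp6Δ cells it was the only member of the set to lie wholly above WT, while 5% of ORF-T units did so, and it was the only one in rrp6Δ cells too, where 5.16% of ORF-T units did so.

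NDI1, the internal NADH dehydrogenase, was not called in either strain. It stood at 20.15, 66.6, 52 and 85.9 CPM in rtr1Δ rrp6Δ libraries, 23.1, 65.75 and 89.2 CPM in rrp6Δ libraries and 29.2, 65.7, 56.6 and 57.5 CPM in WT libraries. The genotypes overlapped, and replicate 1 was the lowest library of each. The log2 fold changes were 0.00 ± 0.13 (adjusted p = 0.982) in rtr1Δ rrp6Δ cells and 0.18 ± 0.15 (adjusted p = 0.273) in rrp6Δ cells.

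Of the 4 succinate dehydrogenase genes 1 was called in rrp6Δ cells, SDH2, which encodes the iron-sulfur subunit, and 0 in rtr1Δ rrp6Δ cells. It had 26.2, 65.3, 63.02 and 71.3 CPM in rtr1Δ rrp6Δ libraries, 27.2, 80.2 and 81.6 CPM in rrp6Δ libraries and 31.95, 54.2, 53.7 and 49.55 CPM in WT libraries, with log2 fold changes of 0.19 ± 0.12 (adjusted p = 0.17) and 0.38 ± 0.13 (adjusted p = 0.0182). The rrp6Δ libraries of replicates 3 and 4 were above all of WT and that of replicate 1 was below all of WT. The call in rrp6Δ cells held in 16 of 25 alternatives. Among others it was lost without WT replicate 3 or 4 (adjusted p = 0.0766 and 0.0792 by edgeR), without rrp6Δ replicate 3 or 4 (0.181 and 0.108), and without the replicate block (0.366). SDH1 had 11.4, 22.9, 18.65 and 31.9 CPM in rtr1Δ rrp6Δ libraries, 8.42, 25.05 and 33.4 CPM in rrp6Δ libraries and 9.68, 28.9, 21.02 and 18.4 CPM in WT libraries (log2 fold changes 0.12 ± 0.17, adjusted p = 0.512 and 0.25 ± 0.19, adjusted p = 0.227). SDH4, a membrane anchor, had 9.21, 16.3, 17.9 and 18.01 CPM in rtr1Δ rrp6Δ libraries, 7.95, 19.7 and 18.3 CPM in rrp6Δ libraries and 10.4, 20.1, 18.2 and 16.1 CPM in WT libraries (log2 fold changes -0.08 ± 0.10, adjusted p = 0.441 and -0.05 ± 0.11, adjusted p = 0.696). For SDH1 and SDH4 the libraries of the 3 genotypes overlapped, with replicate 1 lowest in each. SDH3, the other anchor, gave 0.14 and 0.15.

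The cytochrome bc1 complex was the group with the most calls. In each deletion strain 7 of its 9 genes rose and none fell, and all 9 estimates were above 0, with medians of 0.36 in rtr1Δ rrp6Δ cells and 0.46 in rrp6Δ cells. The largest rise of the 9 was that of CYT1, the cytochrome c1 subunit (chrXV:447439-448368), at 33.9, 80.1, 70.7 and 88.6 CPM in rtr1Δ rrp6Δ libraries, 28.7, 97.5 and 93.7 CPM in rrp6Δ libraries and 28.2, 48.4, 46.1 and 41.4 CPM in WT libraries. Outside replicate 1 every deletion library was above every WT library of CYT1. In replicate 1 the 3 genotypes were near each other and below all other libraries. The log2 fold changes of CYT1 were 0.68 ± 0.14 (adjusted p = 0.000881) in rtr1Δ rrp6Δ cells and 0.80 ± 0.16 (adjusted p = 0.000546) in rrp6Δ cells.

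The next 4 bc1 genes were lowest in replicate 1 of every genotype as well. RIP1, the Rieske iron-sulfur protein, had 29.9, 56.9, 58.2 and 66.2 CPM in rtr1Δ rrp6Δ libraries, 26.4, 77.2 and 71.2 CPM in rrp6Δ libraries and 28.8, 44.9, 47.8 and 39.2 CPM in WT libraries, with log2 fold changes of 0.36 ± 0.12 (adjusted p = 0.0173) and 0.49 ± 0.14 (adjusted p = 0.00509). QCR10, a small subunit, had 7.59, 13.7, 14.8 and 17.3 CPM, 8.04, 18.55 and 18.5 CPM and 7.104, 11.3, 11.5 and 8.999 CPM in the same order of strains, with 0.43 ± 0.12 (adjusted p = 0.00707) and 0.63 ± 0.14 (adjusted p = 0.00108). For both genes the libraries of the 3 genotypes overlapped. QCR9 had 39.1, 59.05, 54.1 and 60.99 CPM in rtr1Δ rrp6Δ libraries, 38.25, 77.5 and 58.8 CPM in rrp6Δ libraries and 36.7, 45.2, 46.05 and 37.5 CPM in WT libraries, with 0.36 ± 0.11 (adjusted p = 0.00926) and 0.50 ± 0.12 (adjusted p = 0.002). QCR6, another small subunit, had 34.2, 48.9, 46.2 and 63.8 CPM, 34.5, 56.99 and 59.1 CPM and 29.9, 41.5, 39.05 and 36.5 CPM, with 0.37 ± 0.10 (adjusted p = 0.00296) and 0.46 ± 0.10 (adjusted p = 0.00139). QCR7 gave 0.35 and 0.41 and the core protein gene QCR2 0.32 and 0.29, all called. The core protein gene COR1 gave 0.20 ± 0.12 (adjusted p = 0.133) and 0.27 ± 0.13 (adjusted p = 0.0767), and QCR8 gave 0.14 ± 0.11 (adjusted p = 0.26) and 0.23 ± 0.12 (adjusted p = 0.1).

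The rise of the bc1 genes kept its direction under each scaling, with 6 to 9 genes called in each strain and none called lower, but the calls changed with the growth day. With the day left out of the fit 0 of 9 were called in either strain (medians 0.37 and 0.45). The share of all transcripts called in that fit is not given here. Without replicate 4, 3 of 9 were called in rtr1Δ rrp6Δ cells, and without rrp6Δ replicate 3, 4 of 9 were called in rrp6Δ cells. Nor is that share given for these smaller fits, so fewer calls across the whole table cannot be told apart from fewer among the bc1 genes.

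CYC1, which encodes the main cytochrome c, was not called. It had 13.45, 15.1, 15.6 and 16.7 CPM in rtr1Δ rrp6Δ libraries, 10.99, 16.04 and 17.2 CPM in rrp6Δ libraries and 15.8, 18.5, 18.8 and 13.6 CPM in WT libraries, with log2 fold changes of -0.13 ± 0.12 (adjusted p = 0.325) and -0.16 ± 0.13 (adjusted p = 0.275). All 3 genotypes overlapped.

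The subunits of cytochrome c oxidase had medians of 0.01 in rtr1Δ rrp6Δ cells and 0.02 in rrp6Δ cells. COX7 rose in both strains (0.33 ± 0.10, adjusted p = 0.00772 and 0.43 ± 0.11, adjusted p = 0.00319), and COX4 rose in rrp6Δ cells (0.36 ± 0.13, adjusted p = 0.0222), and its estimate in rtr1Δ rrp6Δ cells was 0.16 ± 0.12 (adjusted p = 0.221). COX9 was the oxidase gene that went the other way, at 24.25, 28.1, 34.8 and 37.35 CPM in rtr1Δ rrp6Δ libraries, 19.2, 31.5 and 31.25 CPM in rrp6Δ libraries and 28.6, 31.15, 36.1 and 33.5 CPM in WT libraries. It fell in rrp6Δ cells (-0.30 ± 0.09, adjusted p = 0.00678) and was not called in rtr1Δ rrp6Δ cells (-0.07 ± 0.08, adjusted p = 0.418), and with factors from ORF-T units its rrp6Δ estimate was 0.00. COX5A, the aerobic isoform of subunit V, had 42.9, 49.4, 51.1 and 55.6 CPM in rtr1Δ rrp6Δ libraries, 33.3, 58.98 and 53.55 CPM in rrp6Δ libraries and 50.3, 56.5, 58.9 and 49.1 CPM in WT libraries (-0.11 ± 0.10, adjusted p = 0.307 and -0.16 ± 0.11, adjusted p = 0.196). The COX5A libraries overlapped between genotypes. The estimates for COX6, COX8, COX12 and COX13 lay between -0.08 and 0.15 in both strains, with no call.

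Of the 11 ATP synthase genes 2 were called lower and 0 higher in rtr1Δ rrp6Δ cells (median -0.01), where 60.5% of ORF-T units were lower. In rrp6Δ cells 5 of 11 were called lower and 0 higher (median -0.19), where 68.1% of ORF-T units were lower. All 11 lay above the ORF-T median of -0.22 in rtr1Δ rrp6Δ cells, and 10 of 11 above that of -0.29 in rrp6Δ cells. ATP15, the epsilon subunit of the catalytic F1 part, had 43.4, 51.9, 55.05 and 53.96 CPM in rtr1Δ rrp6Δ libraries, 38.5, 52.7 and 49.4 CPM in rrp6Δ libraries and 57.9, 57.9, 59.4 and 62.3 CPM in WT libraries. It was the one gene of the set, at chrXVI:30079-30267, whose libraries lay wholly below WT in both strains, with log2 fold changes of -0.22 ± 0.07 (adjusted p = 0.0074) and -0.35 ± 0.07 (adjusted p = 0.000697). Of ORF-T units, 30.3% lay wholly below WT in rtr1Δ rrp6Δ cells and 43.5% in rrp6Δ cells.

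ATP2 had 523, 568, 559 and 626 CPM in rtr1Δ rrp6Δ libraries, 407, 595.5 and 588.5 CPM in rrp6Δ libraries and 609, 656, 620.4 and 689.9 CPM in WT libraries (-0.18 ± 0.08, adjusted p = 0.0661 and -0.29 ± 0.10, adjusted p = 0.013). Its rrp6Δ libraries were all below WT, replicate 1 furthest. ATP4, subunit b of the stator stalk, had 120.1, 137, 158 and 149 CPM in rtr1Δ rrp6Δ libraries, 95.9, 158 and 141 CPM in rrp6Δ libraries and 135, 150.4, 172 and 154.5 CPM in WT libraries (-0.12 ± 0.07, adjusted p = 0.115 and -0.25 ± 0.08, adjusted p = 0.00931). ATP14, subunit h, had 73.8, 94.6, 90.7 and 98.04 CPM in rtr1Δ rrp6Δ libraries, 64.8, 97.02 and 94.4 CPM in rrp6Δ libraries and 93.5, 96.4, 99.3 and 111 CPM in WT libraries (-0.17 ± 0.07, adjusted p = 0.0478 and -0.24 ± 0.08, adjusted p = 0.0167). The libraries of ATP4 and ATP14 overlapped between genotypes. ATP16, the delta subunit, was called in rrp6Δ cells (-0.20 ± 0.08, adjusted p = 0.0415) and not in rtr1Δ rrp6Δ cells (-0.04 ± 0.07, adjusted p = 0.636), and the difference between these strains was not called. The alpha and gamma subunit genes ATP1 and ATP3, the stalk and membrane subunit genes ATP5, ATP7, ATP17 and ATP20, had no call, with estimates of -0.01 to 0.12 in rtr1Δ rrp6Δ cells and -0.19 to 0.12 in rrp6Δ cells.

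Unlike that of the bc1 genes, the direction of the ATP synthase genes turned with the scale. With factors from ORF-T units, 6 of 11 were called higher in rtr1Δ rrp6Δ cells and 3 in rrp6Δ cells, with 0 lower in either (medians 0.22 and 0.10). The count in rrp6Δ cells also changed with replicate 1, since 1 of 11 was called lower without the rrp6Δ library of that number and 2 of 11 without the WT library. Shares of all transcripts called in those smaller fits are not given here.

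**Figure D2:**
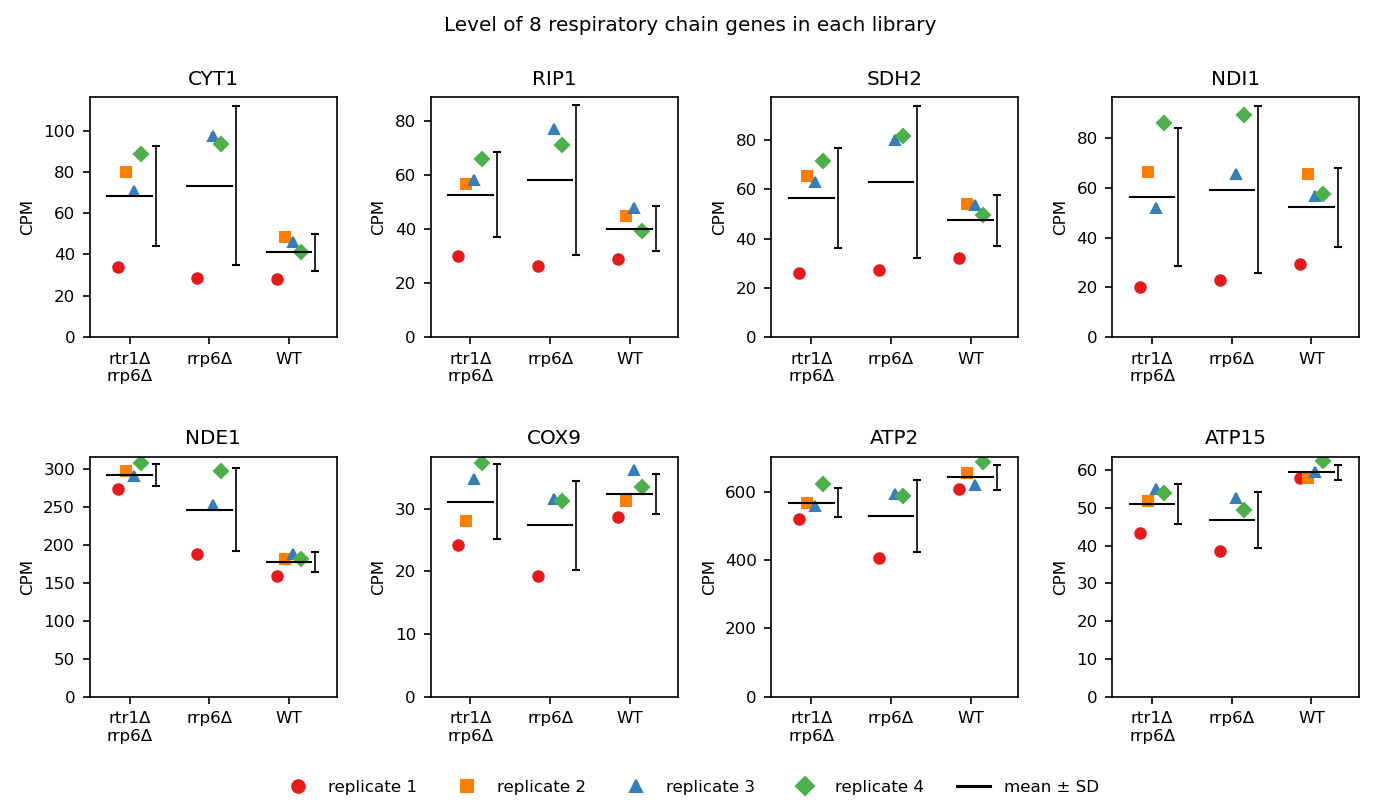
CPM (y axes, from 0) of 8 genes in each library of rtr1Δ rrp6Δ, rrp6Δ and WT, with colour and shape for the replicate number and bars for the mean ± SD. Replicate 1 is the lowest point of each genotype for CYT1, RIP1, SDH2 and NDI1, while NDE1 lies above WT and ATP15 below WT in all libraries of both deletion strains.

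To ask what loss of Rtr1 adds when Rrp6 is already absent, rtr1Δ rrp6Δ was set against rrp6Δ. None of the 35 genes was called by edgeR, while 9.79% of all transcripts (4.42% higher, 5.37% lower) and 8.65% of ORF-T units (6.72% higher, 1.94% lower) were. The libraries of both strains overlapped for all 35 genes, and 7.88% of ORF-T units lay wholly higher and 2.28% wholly lower. At an unadjusted p under 0.05 by edgeR there were 3 of 35. At least the 9.79% of all transcripts called above passed that threshold too, and the full share at it is not given here. DESeq2 and limma also called 0 of the 35. Estimates ran between -0.20 and 0.26, with medians of -0.09 for the bc1 genes and 0.11 for the ATP synthase genes. The highest estimates were those of NDE1 (0.26 ± 0.09, adjusted p = 0.0839), ATP3 (0.24 ± 0.10, adjusted p = 0.15) and COX9 (0.23 ± 0.09, adjusted p = 0.115). COX9 was called when WT was left out of the fit (0.24, adjusted p = 0.0231), and NDE1 when replicate 4 was left out (0.35, adjusted p = 0.0498).

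For most of the 35 genes the libraries differed by replicate number. The replicate number, tested jointly with genotype in the fit, was called for 26 of 35 genes (74.3%), compared with 43% of all transcripts and 55.6% of ORF-T units. Set against the mean of replicates 2 to 4, replicate 1 was lower in 29 of 35 genes (82.9%) and higher in 0. Over all transcripts 44.7% were called in that contrast, 20.4% of them lower and 24.3% higher as shares of the whole table, and among ORF-T units 54.7% were called, 26.5% lower and 28.2% higher. The median of the 35 genes was -0.40 and that of all ORF-T units 0.02. This contrast was chosen because earlier results of these data had set replicate 1 apart.

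All 9 bc1 genes, all 4 succinate dehydrogenase genes and both NADH dehydrogenase genes were lower in replicate 1, with 6 of 8 oxidase genes and 8 of 11 ATP synthase genes. NDI1 (-1.48 ± 0.14, adjusted p = 3.50e-06), SDH1 (-1.36 ± 0.17, adjusted p = 5.08e-05), CYT1 (-1.19 ± 0.15, adjusted p = 3.85e-05), SDH2 (-1.18 ± 0.12, adjusted p = 8.78e-06) and SDH4 (-0.98 ± 0.10, adjusted p = 7.95e-06) were among the genes that differed most. NDI1 in replicate 1 was at 20.15 CPM in rtr1Δ rrp6Δ, 23.1 CPM in rrp6Δ and 29.2 CPM in WT, where the other libraries were between 52 and 89.2 CPM. ATP17, subunit f, was the one gene with an estimate above 0 (0.13 ± 0.07, adjusted p = 0.129). The medians were -1.08 for succinate dehydrogenase, -0.63 for bc1, -0.35 for the oxidase and -0.25 for the ATP synthase. These counts changed little with the scale. Under each of the 4 kinds of factor 9 bc1, 4 succinate dehydrogenase and 8 ATP synthase genes were lower. Without rrp6Δ replicate 1, however, 22 rather than 29 genes were called in either direction. In that setting 3 of the oxidase and 4 of the ATP synthase genes were lower, and the share of all transcripts called there is not given.

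Replicate 1 was the lowest library of its own genotype for 32 of 35 genes in rtr1Δ rrp6Δ, 34 of 35 in rrp6Δ and 25 of 35 in WT, compared with 38.3%, 45.4% and 30% of ORF-T units. Day of growth and all else that libraries of 1 number share cannot be told apart.

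**Figure D3:**
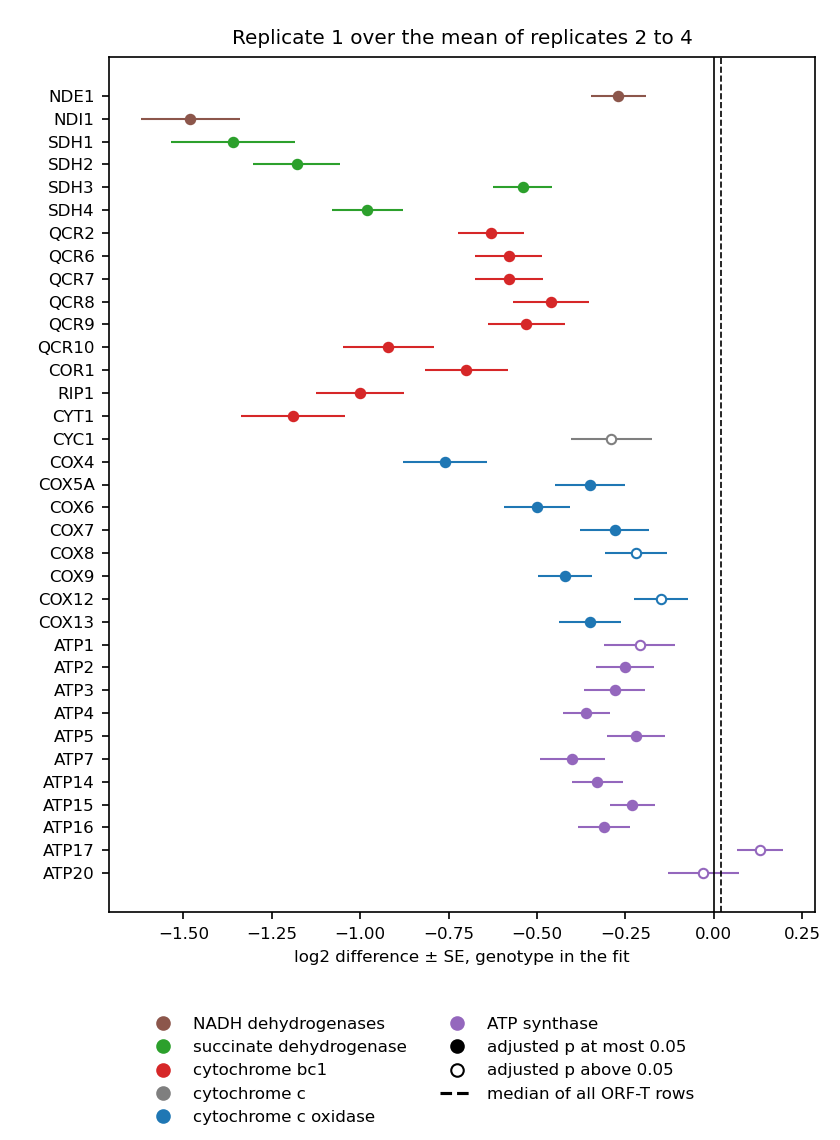
Log2 difference (x axis, ± SE) between replicate 1 and the mean of replicates 2 to 4 for each of the 35 genes, with genotype in the fit, filled for an adjusted p of at most 0.05. Of the 35 points, 34 lie left of 0 and 29 of these are filled, with NDI1 furthest left at -1.48.

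The difference of the deletion strains from WT was therefore also taken within each day. For rtr1Δ rrp6Δ minus WT the medians of the 35 genes were -0.04, 0.02, 0.09 and 0.39 log2 units in replicates 1 to 4, and for rrp6Δ minus WT they were -0.28, 0.25 and 0.31 in replicates 1, 3 and 4. The bc1 genes had medians of 0.09, 0.28, 0.28 and 0.70 in rtr1Δ rrp6Δ and -0.01, 0.54 and 0.70 in rrp6Δ. The medians of all ORF-T units on the same days were -0.26, -0.23, -0.20 and -0.19 in rtr1Δ rrp6Δ and -0.36, -0.27 and -0.24 in rrp6Δ, and all 9 bc1 genes lay above them on each day, replicate 1 included. Of the 35 genes, 30, 32, 33 and 34 lay above these ORF-T medians in rtr1Δ rrp6Δ, and 21, 35 and 34 in rrp6Δ. The ATP synthase genes had medians of -0.04, -0.03, -0.03 and -0.02 in rtr1Δ rrp6Δ and -0.49, 0.09 and -0.07 in rrp6Δ. In rrp6Δ replicate 1, 2 of the 11 ATP synthase genes lay above the ORF-T median. NDE1 was above WT on every day, by 0.79, 0.72, 0.63 and 0.76 in rtr1Δ rrp6Δ and by 0.25, 0.42 and 0.71 in rrp6Δ.

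A fit that let replicate 1 differ from the other days in each deletion strain, added after these values were seen, called 0 of the 35 genes and 0 of the 12670 transcripts for that term by edgeR. At an unadjusted p under 0.05 it held 9 of 35 genes in rtr1Δ rrp6Δ (10.9% of all transcripts, 12.1% of ORF-T units) and 28 of 35 in rrp6Δ (10.5% and 12.8%), all 28 with a lower difference from WT in replicate 1. In that fit, over replicates other than 1, rtr1Δ rrp6Δ had 14 genes higher and 2 lower (74.7% of all transcripts, 40.5% and 34.2%) and rrp6Δ had 18 higher and 1 lower (75.3%, 41.8% and 33.5%), the bc1 genes being 8 and 9 of these. In replicate 1 alone rtr1Δ rrp6Δ had 1 higher and 2 lower (56.2%, 32% and 24.2%) and rrp6Δ had 0 higher and 15 lower (66.9%, 34.8% and 32.1%), of which 10 were ATP synthase genes. The values for replicate 1 alone rest on 1 library per genotype, assumed to vary like the others.

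**Figure D4:**
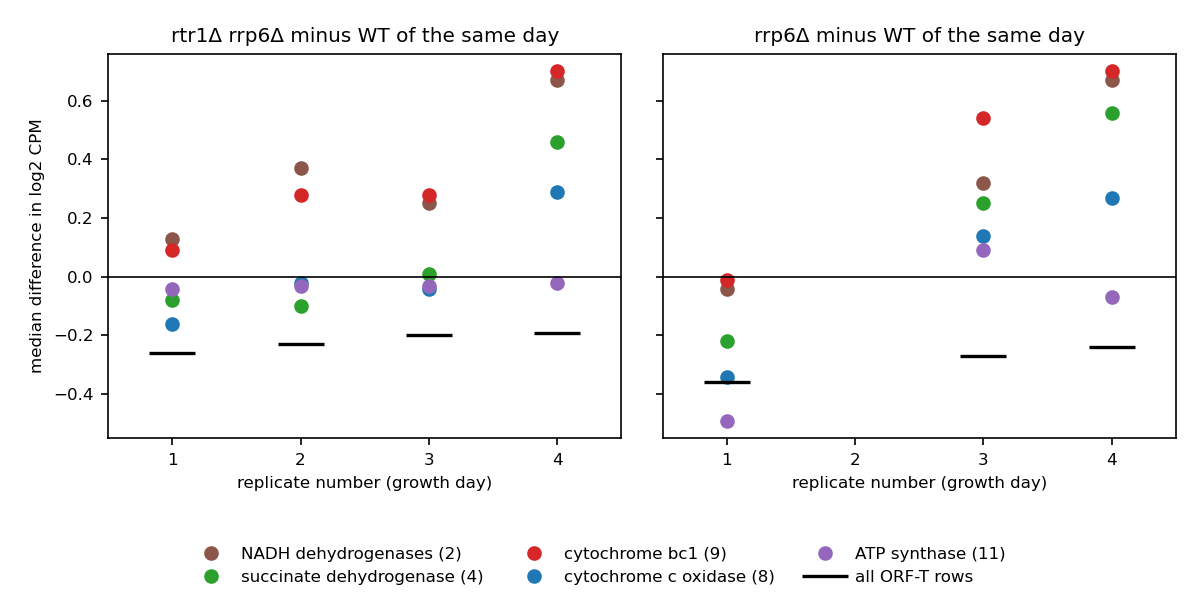
Median difference in log2 CPM (y axis) of each complex in rtr1Δ rrp6Δ (left) and rrp6Δ (right) minus the WT library of the same replicate number (x axis), with black bars for the median of all ORF-T units. In rrp6Δ every complex lies lower in replicate 1 than in replicates 3 and 4, and the bc1 genes have the highest or next to highest median on each day.

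Genes around the chain were grouped in lists by function. The shares of ORF-T units beside their counts belong to TMM factors over all transcripts. No such share is given for the counts with factors from ORF-T units. Of the alternative isoforms, CYC7, which encodes iso-2-cytochrome c, was at 0.8615, 10.6, 9.28 and 12.1 CPM in rtr1Δ rrp6Δ libraries, 0.9815, 12.5 and 11.8 CPM in rrp6Δ libraries and 0.954, 4.07, 5.18 and 4.78 CPM in WT libraries, and rose by 1.08 ± 0.17 (adjusted p = 7.01e-05) and 1.21 ± 0.19 (adjusted p = 6.27e-05). In replicate 1 all 3 genotypes were below 1 CPM, and the replicate 1 contrast was -3.24 ± 0.21 (adjusted p = 2.69e-07). COX5B, the hypoxic isoform of subunit V, had 21.7, 51.6, 60.9 and 68.4 CPM, 19.6, 64.7 and 58.6 CPM and 32.45, 54.1, 67.1 and 77.5 CPM in the same order of strains. It fell in both strains (-0.24 ± 0.09, adjusted p = 0.0312 and -0.35 ± 0.10, adjusted p = 0.00667), with values of -0.01 and -0.06 under factors from ORF-T units, and was again lowest in replicate 1 of each genotype (-1.32 ± 0.10, adjusted p = 5.03e-07). NDE2, the paralog of NDE1, had 85.8, 82.04, 85.3 and 95.3 CPM in rtr1Δ rrp6Δ libraries, 79.8, 77.6 and 69.5 CPM in rrp6Δ libraries and 107, 85.25, 92.7 and 80.01 CPM in WT libraries, with -0.06 ± 0.08 (adjusted p = 0.491) and -0.30 ± 0.09 (adjusted p = 0.00679). Without the growth day in the fit CYC7 was not called (adjusted p = 0.229 and 0.228).

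Of 9 other subunits and inhibitors, 2 rose in both strains. COX26, which encodes a small protein bound to cytochrome c oxidase, had 3.98, 12.7, 10.2 and 16.8 CPM in rtr1Δ rrp6Δ libraries, 4.31, 23.9 and 24.02 CPM in rrp6Δ libraries and 1.38, 5.87, 7.06 and 4.39 CPM in WT libraries, with 1.26 ± 0.19 (adjusted p = 5.72e-05) and 1.94 ± 0.21 (adjusted p = 1.95e-06), and it was lower in rtr1Δ rrp6Δ than in rrp6Δ (-0.68 ± 0.19, adjusted p = 0.0437). That last call was lost without WT replicate 2, and the adjusted p reached 0.285 with a library or replicate number left out and 0.784 without the replicate block. INH1, which encodes an inhibitor of the F1 ATPase, had 5.67, 14.04, 11.2 and 16.2 CPM, 3.89, 17.9 and 14.96 CPM and 2.72, 8.43, 8.28 and 7.59 CPM, with 0.83 ± 0.15 (adjusted p = 0.000251) and 0.91 ± 0.17 (adjusted p = 0.000272). Both were lowest in replicate 1 of each genotype. ATP19, a subunit of the membrane part, fell in both (-0.28 ± 0.09, adjusted p = 0.015 and -0.31 ± 0.10, adjusted p = 0.015), RCF1, ATP18 and TIM11 were called lower in rrp6Δ cells, and 0 of the 9 fell with factors from ORF-T units.

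Most assembly factors of the complexes fell. In each deletion strain 21 of 23 assembly and expression factors of cytochrome c oxidase fell and 0 rose, among them OXA1, the membrane insertase (-0.80 ± 0.08, adjusted p = 6.73e-07 and -0.88 ± 0.09, adjusted p = 9.16e-07), and COX14 (-0.46 ± 0.07, adjusted p = 3.78e-05 and -0.79 ± 0.08, adjusted p = 7.25e-07). With factors from ORF-T units 16 fell and 1 rose in rtr1Δ rrp6Δ cells, and 14 fell and 0 rose in rrp6Δ cells. Of 7 ATP synthase assembly genes, 7 fell in rtr1Δ rrp6Δ cells and 6 in rrp6Δ cells, and of 11 for bc1, succinate dehydrogenase and cytochrome c, 8 fell in each, including the heme lyase gene CYC3 (-0.56 ± 0.07, adjusted p = 5.03e-06 and -0.72 ± 0.07, adjusted p = 1.51e-06). All 10 coenzyme Q genes fell in both strains (medians -0.28 and -0.39). With factors from ORF-T units 1 and 2 of these fell. These shares stand beside 60.5% and 68.1% of all ORF-T units that fell.

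Of the regulators 7 of 10 fell in rtr1Δ rrp6Δ cells and 9 of 10 in rrp6Δ cells, compared with 60.5% and 68.1% of ORF-T units. Their medians were -0.29 and -0.33, beside -0.22 and -0.29 for all ORF-T units, and 4 and 3 fell with factors from ORF-T units. HAP4 had 204, 252, 258 and 300 CPM in rtr1Δ rrp6Δ libraries, 139.7, 228 and 261 CPM in rrp6Δ libraries and 194.5, 278, 292 and 254 CPM in WT libraries. Its log2 fold change was 0.00 ± 0.09 (adjusted p = 0.971) in rtr1Δ rrp6Δ cells and -0.29 ± 0.10 (adjusted p = 0.0169) in rrp6Δ cells, where it became 0.01 with factors from ORF-T units, and the libraries overlapped. Like the chain genes it was lower in replicate 1 (-0.54 ± 0.09, adjusted p = 0.000285). HAP5, a DNA-binding subunit of the same complex, fell in both strains (-0.48 ± 0.08, adjusted p = 0.000167 and -0.64 ± 0.10, adjusted p = 4.28e-05), as did PUF3, whose product binds messenger RNAs for mitochondrial proteins (-0.55 ± 0.06, adjusted p = 1.23e-06 and -0.50 ± 0.06, adjusted p = 8.40e-06). CAT8, an activator of genes for growth on non-fermentable carbon, was among the genes lowest in replicate 1 (-1.54 ± 0.14, adjusted p = 2.30e-06).

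In the tricarboxylic acid cycle 5 of 11 genes fell in rtr1Δ rrp6Δ cells and 8 of 11 in rrp6Δ cells, compared with 60.5% and 68.1% of ORF-T units, while with factors from ORF-T units 4 fell and 3 rose in each. ACO1, aconitase, had 299, 369, 401 and 348 CPM in rtr1Δ rrp6Δ libraries, 191, 257 and 337 CPM in rrp6Δ libraries and 686, 939.7, 852 and 750.5 CPM in WT libraries. No deletion library reached WT, with log2 fold changes of -1.19 ± 0.11 (adjusted p = 3.91e-07) and -1.59 ± 0.12 (adjusted p = 8.72e-08). The isocitrate dehydrogenase genes IDH1 (-0.52 ± 0.10, adjusted p = 0.000505 and -1.10 ± 0.12, adjusted p = 1.84e-06) and IDH2 (-0.57 ± 0.10, adjusted p = 0.00014 and -1.14 ± 0.11, adjusted p = 7.46e-07) fell as well. Both were higher in rtr1Δ rrp6Δ than in rrp6Δ cells (0.58 ± 0.12, adjusted p = 0.0103 and 0.57 ± 0.11, adjusted p = 0.00917), as were LPD1 and FUM1, though without rrp6Δ replicate 3 none of the 4 was called. Of 8 heme genes, HEM4 rose (0.64 ± 0.07, adjusted p = 1.75e-06 and 0.80 ± 0.07, adjusted p = 5.29e-07), 4 fell in rtr1Δ rrp6Δ cells and 3 in rrp6Δ cells, but 1 in each with factors from ORF-T units, where 2 and 4 rose.

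Of 16 glycolytic and fermentative genes 12 fell in rtr1Δ rrp6Δ cells and 15 in rrp6Δ cells, compared with 60.5% and 68.1% of ORF-T units, but 4 and 6 with factors from ORF-T units. In replicate 1, 4 of the 16 were lower, where 26.5% of ORF-T units were. Of 10 glucose-repressed genes of carbon use measured, 1 rose and 6 fell in rtr1Δ rrp6Δ cells, and 1 rose and 4 fell in rrp6Δ cells, while with factors from ORF-T units 1 rose and 5 fell, and 4 rose and 3 fell. GUT2, the mitochondrial glycerol-3-phosphate dehydrogenase that feeds the same coenzyme Q pool, was the one that rose (0.53 ± 0.09, adjusted p = 0.000169 and 0.49 ± 0.10, adjusted p = 0.00072). In replicate 1, 9 of these 10 were lower and 0 higher, compared with 26.5% and 28.2% of ORF-T units, with a median of -1.03, and the part of this in the lower respiratory genes of replicate 1 was not tested.

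Antisense units opposite 4 of the 35 genes were in the table, and libraries were strand-specific. The study kept antisense units that changed in rrp6Δ cells, so their change there was part of how they were chosen and is a description, and the rtr1Δ rrp6Δ values share the WT libraries with it. The difference of rtr1Δ rrp6Δ from rrp6Δ uses the rrp6Δ libraries of that choice. For units kept because they were high there, that choice can tilt the difference towards lower values, so it is a description too. All 4 were higher in both strains. The unit opposite COX6 had 4.27, 3.53, 2.55 and 2.54 CPM in rtr1Δ rrp6Δ libraries, 6.87, 4.84 and 4.24 CPM in rrp6Δ libraries and 1.66, 0.82, 0.596 and 0.3375 CPM in WT libraries. The unit opposite CYC1 had 6.63, 6.51, 5.85 and 6.15 CPM, 7.12, 8.899 and 9.43 CPM and 2.19, 1.77, 1.82 and 2.14 CPM in the same order of strains. Neither overlapped WT. The log2 fold changes were 1.98 and 2.74 opposite COX6, 1.67 and 2.09 opposite CYC1, 3.05 and 2.79 opposite ATP14, and 2.14 and 1.84 opposite NDI1. In WT libraries the unit opposite ATP14 had 0.636, 0.754, 0.596 and 0.309 CPM. That opposite NDI1 had 0.495, 0.328, 0.282 and 0.422 CPM in WT libraries, so the fold changes of both units rest on low WT levels. In rtr1Δ rrp6Δ against rrp6Δ cells the units opposite COX6 (-0.77 ± 0.18, adjusted p = 0.0216) and CYC1 (-0.43 ± 0.12, adjusted p = 0.0496) were lower, and those opposite ATP14 (0.27 ± 0.15, adjusted p = 0.288) and NDI1 (0.30 ± 0.19, adjusted p = 0.327) were not called. Among the sense genes, only ATP14 was called, lower in both strains. Antisense CPM was below that of the sense gene in every library.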

How the data were processed

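The authors extracted RNA with hot acid phenol, removed ribosomal RNA and prepared libraries that keep the strand. Per the study's methods and processing notes, the authors aligned reads with STAR 2.5.2b to sacCer3 and made the deposited counts per transcript with featureCounts (Subread 1.5.0). The counts are called normalized in the deposited legend, but their totals differ between libraries, so they were treated as raw counts. Scaling by the authors before deposit cannot be told apart from unequal depth. Columns with the authors' own fold changes, p-values and false discovery rates were not used. Of the per-sample columns, 1 was not used because its name gives an RTR1 deletion while it stands among the RRP6 deletion columns, and 5 of the 16 samples were not analysed here. The spike-ins were not used.

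TMM factors over all 12670 transcripts, dispersions and quasi-likelihood tests were computed with edgeR 4.0.16 (R 4.3.3), with genotype and replicate number in the model and Benjamini-Hochberg adjustment over all transcripts. The filter on low counts removed 0. The replicate number was used as a block because all genotypes of 1 number were grown on 1 day. As a check, deviations of same-numbered libraries from their genotype means correlated at 0.28 to 0.85 (10 pairs, 11328 transcripts with a mean of at least 50 counts), and those of other pairs at -0.71 to 0.40 (30 pairs). Without the replicate block 3 of the 35 genes were called in rrp6Δ cells. Same-day differences used log2 CPM with a prior count of 2. Alternatives were other scalings, filters, DESeq2 1.42.0, limma 3.58.1 (voom), the 2 groups compared alone, and leaving out libraries or replicate numbers. The test was also run on counts simulated from means and dispersions fitted to these data, and the outcome is not reported here. Values in every library were given for the 4 called genes with the largest rise and the 4 with the largest fall per comparison, the 6 with the smallest adjusted p for the replicate number, COX5A, CYC1 and NDE1, and called genes that went against their complex. From each list of related genes up to 3 called genes per comparison with the smallest adjusted p could be named, with HAP4, CYC7 and COX5B always. ATP18, TIM11 and FUM1 fall outside this rule and were named after their values were seen. The members and lists were chosen with earlier results of these data known. Replicates were separate cultures.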

Additional observations from a re-analysis of the deposited data

Results flagged for a closer look

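ATP16, which encodes the delta subunit of the ATP synthase, was at 84.0 CPM in replicate 1 of rtr1Δ rrp6Δ, where the other 3 libraries of that strain were between 94.33 and 96.25 CPM. The gap to the nearest library was 0.843 of the range of the 4. It was the 1 sample standing apart in this way among 76 groups checked over 38 genes, where chance alone gives about 1 in 20 groups.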

How the results depend on the processing

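Without the replicate block 3 genes were called in rrp6Δ cells and 1 in rtr1Δ rrp6Δ cells. In rtr1Δ rrp6Δ cells upper-quartile factors gave 17 calls, and TMM factors from ORF-T units, with all transcripts or ORF-T units tested, gave 23 and 23 (medians 0.29 and 0.29). For the difference of rtr1Δ rrp6Δ from rrp6Δ, the fit of those strains alone gave 1 call. The cause of these shifts was not tested. With factors from ORF-T units these estimates changed sign in rrp6Δ cells: COX8 0.30, COX12 0.28, SDH4 0.25, ATP2 0.01, ATP4 0.05, ATP14 0.06, ATP16 0.10 and ATP17 0.25. With ORF-T units alone tested they were COX8 0.29, COX12 0.28, ATP2 0.01, ATP4 0.05, ATP14 0.06, ATP16 0.10 and ATP17 0.24. In rtr1Δ rrp6Δ cells COX12 0.22, ATP14 0.06 and ATP16 0.19 changed sign under both, and ATP15 was 0.00 and 0.01. Leaving out 1 library gave 14 to 19 calls in rrp6Δ cells (medians -0.06 to 0.23), 9 to 16 in rtr1Δ rrp6Δ cells (0.00 to 0.16) and 0 between the strains (-0.15 to 0.07). Leaving out 1 replicate number gave 15 to 21 (-0.02 to 0.26), 6 to 15 (-0.02 to 0.12) and 0 to 1 (-0.11 to 0.08), with 6 in rtr1Δ rrp6Δ cells without replicate 4. With 1 library left out the replicate number was called for 16 to 32 genes, 16 without rrp6Δ replicate 1. The contrast of replicate 1 with the other replicates was then called, in either direction, for 22 to 33 genes. Shares of all transcripts called under these settings are not given, so changes across the whole table cannot be told apart from changes in these genes.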
